A study of Homo sapiens with 24 samples.

Results

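The ZBTB transcription factors were examined across RNA-Seq libraries of human HEK293T cells. The members were every gene whose symbol is ZBTB followed by a number and at most 1 letter, which gave 40 of the 58884 genes listed in each expression table. The rule reads symbols only. ZBTB proteins carry an N-terminal BTB domain, which pairs the proteins and can recruit corepressor complexes or the ubiquitin ligase scaffold CUL3, and C-terminal Krüppel-type zinc fingers, which bind DNA. Most of the studied members act as sequence-specific repressors, although some activate, and the family is best known for steering lymphoid and myeloid lineages, for reading methylated DNA and for controlling cell cycle genes. HEK293T is an established line of transformed human embryonic kidney cells, and thus lies outside the blood lineages in which many members were first studied.

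SETD2 is the enzyme that trimethylates histone H3 at lysine 36, and the study asked how its loss and its accumulation alter the transcriptome. A first RNA table held 2 libraries of wild-type (WT) HEK293T cells and 2 libraries labelled KO, from a setd2Δ derivative in which both endogenous SETD2 alleles were disrupted, all without transfection. A second RNA table held 2 libraries labelled KO, also labelled as untreated, 2 libraries of the same KO cells rescued with full-length SETD2 (SETD2 FL), and 2 libraries of KO cells rescued with the C-terminal construct SETD2 C, called N3 in the labels and spanning residues 1404 to 2564. The rescue constructs were introduced by transient transfection on plasmids, so SETD2 FL and SETD2 C differ from the libraries labelled KO in both transfection and construct, which cannot be told apart in those comparisons, whereas SETD2 C and SETD2 FL were both transfected. The sources used here do not say whether the KO cells are 1 clone, nor whether the RNA-Seq replicates are separate cultures, so the p-values measure the spread between these libraries, which may be technical.

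Values are TPM, which scales reads for gene length and library total, and the read depth of each library is unknown. Between 24306 and 27104 genes were above 0 TPM in each library, with the 2 SETD2 C libraries highest, and libraries of 1 group correlated at Pearson r from 0.993 to 0.995 over genes. SETD2 itself was not lower in the libraries labelled KO than in WT, at 16.19 and 16.31 against 12.62 and 14.82 TPM (log2 difference, WT minus KO, -0.11 ± 0.08 SE, limma adjusted p = 0.408), so the transcript level does not check that label. In the second table SETD2 was at 11.99 and 12.15 TPM in the libraries labelled KO, 439.26 and 421.96 TPM with SETD2 FL and 1329.05 and 1264.32 TPM with SETD2 C. The HEK293T markers VIM, KRT8, KRT18 and NEFM were at 27.06 TPM or more in every library and PAX2 at 0.99 to 2.21 TPM, while PTPRC, PECAM1 and ALB were at most 0.02, 0.17 and 0.38 TPM. Of the 5 HEK293T markers, 3 rose with SETD2 C against the libraries labelled KO, beside 21.1% of all tested genes. These were KRT8 by log2 1.61, NEFM by 1.20 and KRT18 by 0.21 (limma adjusted p = 4.86e-06, 7.99e-05 and 0.019). Against SETD2 FL 4 were higher, VIM being the other (0.29, adjusted p = 0.00849), beside 21.4% of all tested genes. COL3A1, a fibroblast collagen, was at 0.39 to 1.94 TPM and rose by 0.74 with SETD2 C against the libraries labelled KO (adjusted p = 0.0153). The part of these markers in the ZBTB results was not tested.

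Of the 40 members, 38 passed the filter on low values (0.5 TPM or more in at least 2 libraries) in both tables. ZBTB20 stayed under it, at 0.05 to 0.11 TPM in the first table and 0.08 to 0.44 TPM in the second, and so did ZBTB32, at no more than 0.02 TPM. Both are lymphoid regulators, and ZBTB20 also acts in liver and brain. The family was expressed at modest levels, with 10 members at a mean of 10 TPM or more in the second table, 27 between 1 and 10 TPM and 3 under 1 TPM. The tested members had a median of 6.18 TPM against 10.3 TPM for all tested genes.

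The highest member was ZBTB33 (Kaiso), which binds methylated CpG sites and an unmethylated consensus. It was listed at 29.90 and 29.62 TPM in the libraries labelled KO of the second table, 27.26 and 29.96 TPM with SETD2 FL and 35.08 and 37.94 TPM with SETD2 C. ZBTB48, also known as TZAP and a telomere-binding protein, came next at 21.96 and 22.41, 26.62 and 28.38, and 23.41 and 22.70 TPM in the same order of groups. ZBTB17 (MIZ-1), the partner through which MYC represses, followed at 18.03 and 17.67, 19.37 and 21.98, and 23.18 and 21.90 TPM. ZBTB33 and ZBTB48 overlapped with SETD2 FL and ZBTB48 and ZBTB17 with SETD2 C, although the order of the 3 was the same within each of the 6 libraries. In the first table ZBTB33 led again (22.32 and 30.70 TPM in WT, 32.44 and 33.21 TPM in the libraries labelled KO). ZBTB48 followed there (20.45 and 20.71, then 23.13 and 23.23 TPM), and ZBTB18, a neuronal repressor, came after it (15.14 and 18.75, then 18.05 and 19.08 TPM). ZBTB18 was at 12.16 to 15.21 TPM in the second table, where its neighbours in the order, ZBTB5, ZBTB44 and ZBTB10, overlapped with it. The lowest tested member was ZBTB7C in the second table, at 0.39 to 0.77 TPM, and ZBTB8B in the first, at 0.69 to 0.86 TPM, where ZBTB7C overlapped with it.

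**Figure D1:**
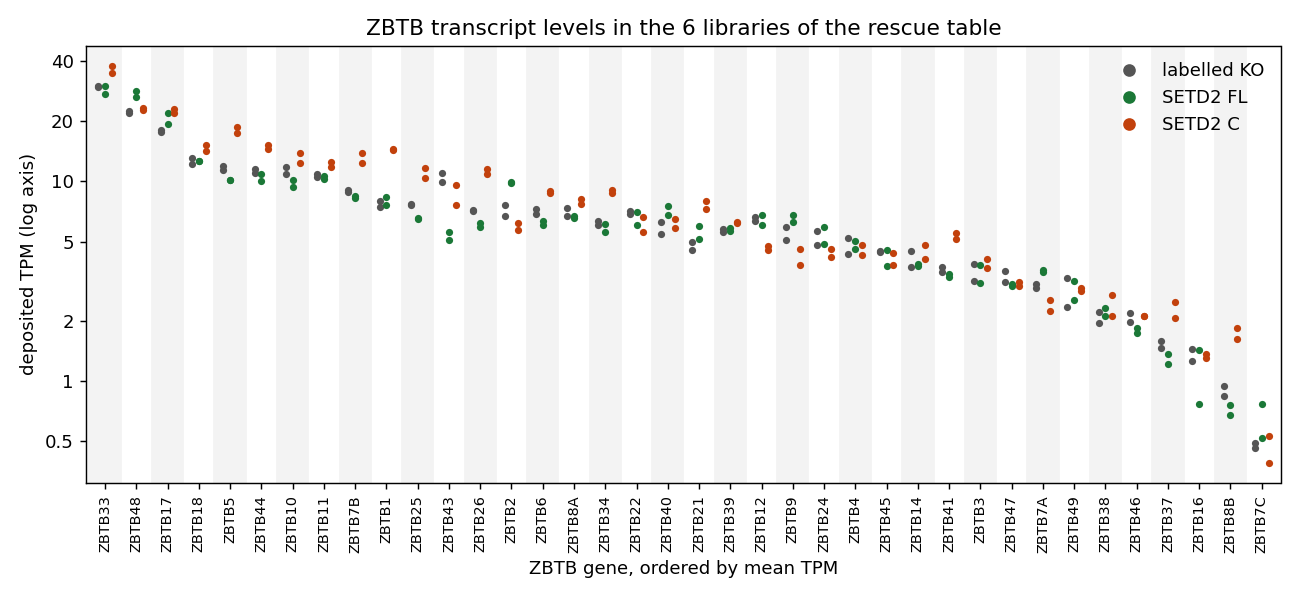
Deposited TPM (log axis) of the 38 tested ZBTB genes in each of the 6 libraries of the second RNA table, ordered by mean, with grey points for the libraries labelled KO, green for SETD2 FL and orange for SETD2 C. ZBTB33 is highest at 27.26 to 37.94 TPM and ZBTB7C lowest at 0.39 to 0.77 TPM, and the orange points stand apart from the others for genes such as ZBTB1, ZBTB5 and ZBTB26.

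WT and KO cells were compared to see which members depend on endogenous SETD2. None of the 38 tested members was higher or lower in WT than in the libraries labelled KO at an adjusted p of 0.05 or less (limma with Benjamini-Hochberg adjustment over all 14746 tested genes), where 3.17% of all tested genes were higher and 1.32% lower (4.48% in either direction, and 1.36% past 2-fold). At an unadjusted p under 0.05 there were 2 members, against 24.9% of all tested genes. The median difference of the members, WT minus KO, was -0.03 on the log2 scale, where 1 is a 2-fold difference, against 0.01 for all tested genes. The 2 groups did not overlap for 17 members (44.7%), and they did not overlap for 56.9% of all tested genes.

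The 2 members with unadjusted p under 0.05 were ZBTB24 and ZBTB2. ZBTB24, whose loss causes an immunodeficiency with DNA hypomethylation, was listed at 6.08 and 7.71 TPM in WT and 8.97 and 9.21 TPM in the libraries labelled KO, a log2 difference of -0.26 ± 0.10 SE (adjusted p = 0.156). ZBTB2, a reported repressor of CDKN1A, was listed at 10.52 and 12.15 TPM in WT and 14.96 and 14.14 TPM in the libraries labelled KO, a difference of -0.22 ± 0.08 SE (adjusted p = 0.159). Both WT libraries lay below both libraries labelled KO for these genes, but neither difference passed the test. The widest 95% interval among the members was that of ZBTB16 (-0.57 to 0.76), and that of ZBTB12 ran from -0.23 to 0.19, and the interval of no member reached 2-fold.

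**Figure D2:**
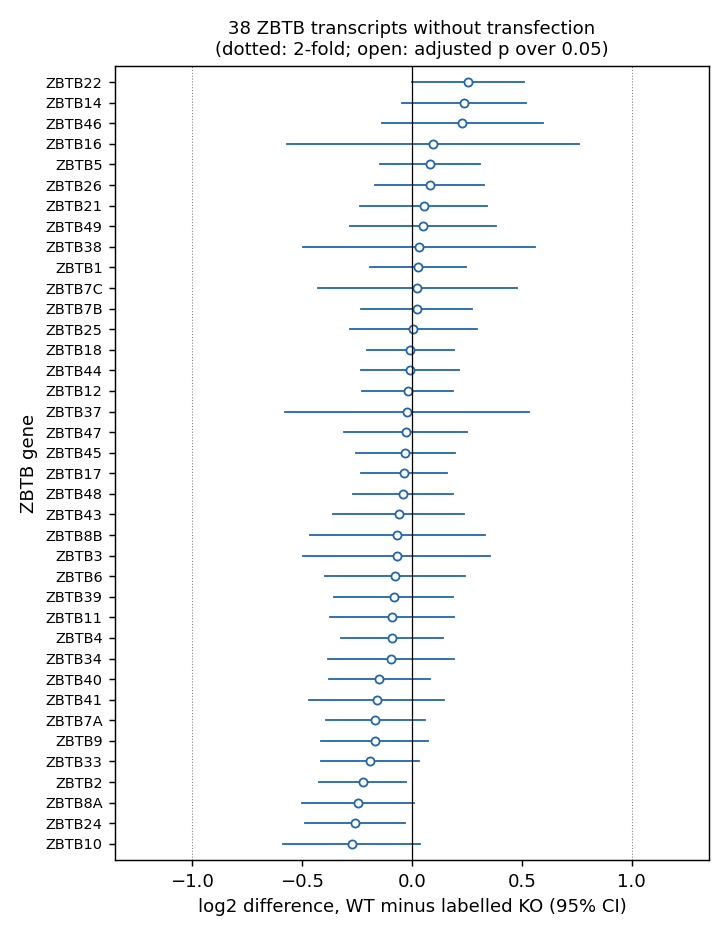
Log2 difference of each of the 38 tested ZBTB genes between WT and the libraries labelled KO of the first RNA table (points) with the 95% confidence interval (lines), and dotted lines at 2-fold. All points are open because no member passed the test, and the intervals of ZBTB24 (-0.49 to -0.03) and ZBTB2 (-0.42 to -0.03) are the ones that leave out 0.

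The SETD2 FL rescue was compared with the libraries labelled KO to see what returning the whole protein does to the family. ZBTB43 fell and no other member passed the test, beside 0.0314% of all 15933 tested genes that fell and 0.176% that rose (0.207% in either direction, and 0.0816% past 2-fold). In the libraries labelled KO ZBTB43 was listed at 9.98 and 10.97 TPM, and with SETD2 FL at 5.61 and 5.11 TPM. These are bulk libraries, in which a change in some of the cells and a smaller change in every cell cannot be told apart. The FL libraries were both below both libraries labelled KO, by 0.93 ± 0.12 SE on the log2 scale (SETD2 FL minus KO, -0.93, limma adjusted p = 0.0435). The call was lost when any 1 library was left out, at differences of -0.999, -0.85, -1.01 and -0.84 and adjusted p of 0.122, 0.215, 0.156 and 0.136 without KO replicate 2, KO replicate 4, FL replicate 3 and FL replicate 4, and it was kept in 5 of the 10 other settings tried. In the first table, where no cells were transfected, ZBTB43 was lower in every library than in the untreated KO cells of the later table, at 3.16 and 4.46 TPM in WT and 4.30 and 4.32 TPM in the libraries labelled KO, but the tables were made separately and no test spans them. An untreated KO library has the number 2 in both tables, with titles that differ only in naming batch 1 or batch 2. Whether the same RNA was sequenced for both is not stated.

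A further 9 members had an unadjusted p under 0.05 in this comparison, so that 10 of 38 did so with ZBTB43, against 15.9% of all tested genes. The nearest to the threshold were ZBTB48 at a difference of 0.28 ± 0.06 SE (adjusted p = 0.129) and ZBTB2 at 0.42 ± 0.10 SE (adjusted p = 0.139). ZBTB2 was listed at 7.62 and 6.69 TPM in the libraries labelled KO and 9.81 and 9.91 TPM with SETD2 FL. The groups did not overlap for 27 members (71.1%), beside 48.2% of all tested genes, and the members' median difference was -0.09 against 0.01 for all tested genes.

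Rescue with SETD2 C altered more of the family. Against the libraries labelled KO, 10 of the 38 tested members rose (26.3%) and 6 fell (15.8%), beside 21.1% of all tested genes that rose and 15.1% that fell (36.2% in either direction). The members' shares were thus near those of all tested genes, and none of the 16 differences reached 2-fold, which 4.06% of all tested genes did. Those that rose were ZBTB1, ZBTB8B, ZBTB21, ZBTB26, ZBTB5, ZBTB7B, ZBTB25, ZBTB41, ZBTB34 and ZBTB44, by log2 0.24 to 0.72. Those that fell were ZBTB12, ZBTB9, ZBTB43, ZBTB7A, ZBTB2 and ZBTB24, at log2 differences of -0.57 to -0.36. At an unadjusted p under 0.05 there were 18 members, beside 47.1% of all tested genes, and the groups did not overlap for 26 members (68.4%), beside 71.3% of all tested genes.

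The split into risen and fallen members in this comparison depended on the scaling between libraries. Without scaling 14 members rose and 2 fell, and after quantile normalization 6 rose and 10 fell. The median of all tested genes moved with it, from 0.05 to 0.18 without scaling and to -0.03 after quantile normalization. The differences given here are relative to the median ratio of the genes used for scaling. The sign of no passing member reversed. Without scaling the falls of ZBTB2, ZBTB7A, ZBTB24 and ZBTB43 were not kept, at -0.243, -0.274, -0.225 and -0.27. Their limma adjusted p was 0.0792, 0.102, 0.177 and 0.0981 in that order. After quantile normalization the rises of ZBTB34, ZBTB41, ZBTB44 and ZBTB8B were not kept, at 0.266, 0.188, 0.195 and 0.247. Here the limma adjusted p was 0.0508, 0.199, 0.0931 and 0.267. Without C replicate 1 there were 3 risen and 4 fallen members, without C replicate 2 there were 6 and 2, and without KO replicate 2 or KO replicate 4 there were 5 and 2. ZBTB1, ZBTB5, ZBTB12 and ZBTB26 kept their call in every setting and with every library left out.

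SETD2 C was then compared with SETD2 FL, both in transfected KO cells. Each difference between constructs is given as SETD2 C minus SETD2 FL. SETD2 itself was higher with SETD2 C, by 1.46 ± 0.06 SE (limma adjusted p = 7.06e-06), whereas the paper states that the 2 transcript levels did not differ significantly. The measures are unlike, as the paper's methods name edgeR, while TPM scales reads for length and the 2 constructs differ in length. The paper also reports markedly more SETD2 C protein. Construct and amount of SETD2 therefore cannot be told apart in this comparison. Here 14 members were higher with SETD2 C (36.8%) and 7 lower (18.4%), beside 21.4% of all tested genes that were higher and 16.8% that were lower (38.2% in either direction). The higher members were ZBTB8B, ZBTB26, ZBTB1, ZBTB5, ZBTB25, ZBTB37, ZBTB43, ZBTB7B, ZBTB41, ZBTB34, ZBTB44, ZBTB6, ZBTB10 and ZBTB33, by log2 0.22 to 0.78. The lower members were ZBTB2, ZBTB9, ZBTB7A, ZBTB12, ZBTB24, ZBTB48 and ZBTB40, at -0.80 to -0.31. No member passed 2-fold, which 3.78% of all tested genes did. At an unadjusted p under 0.05 there were 22 members, beside 48.8% of all tested genes, and the groups did not overlap for 30 members (78.9%), beside 72.3% of all tested genes. This comparison and the one against the libraries labelled KO share the SETD2 C libraries. Without C replicate 2 the higher members numbered 8, and 13 of the 21 calls were kept in every setting and with every library left out. Without scaling 15 members were higher and 5 lower, and after quantile normalization 12 and 8.

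**Figure D3:**
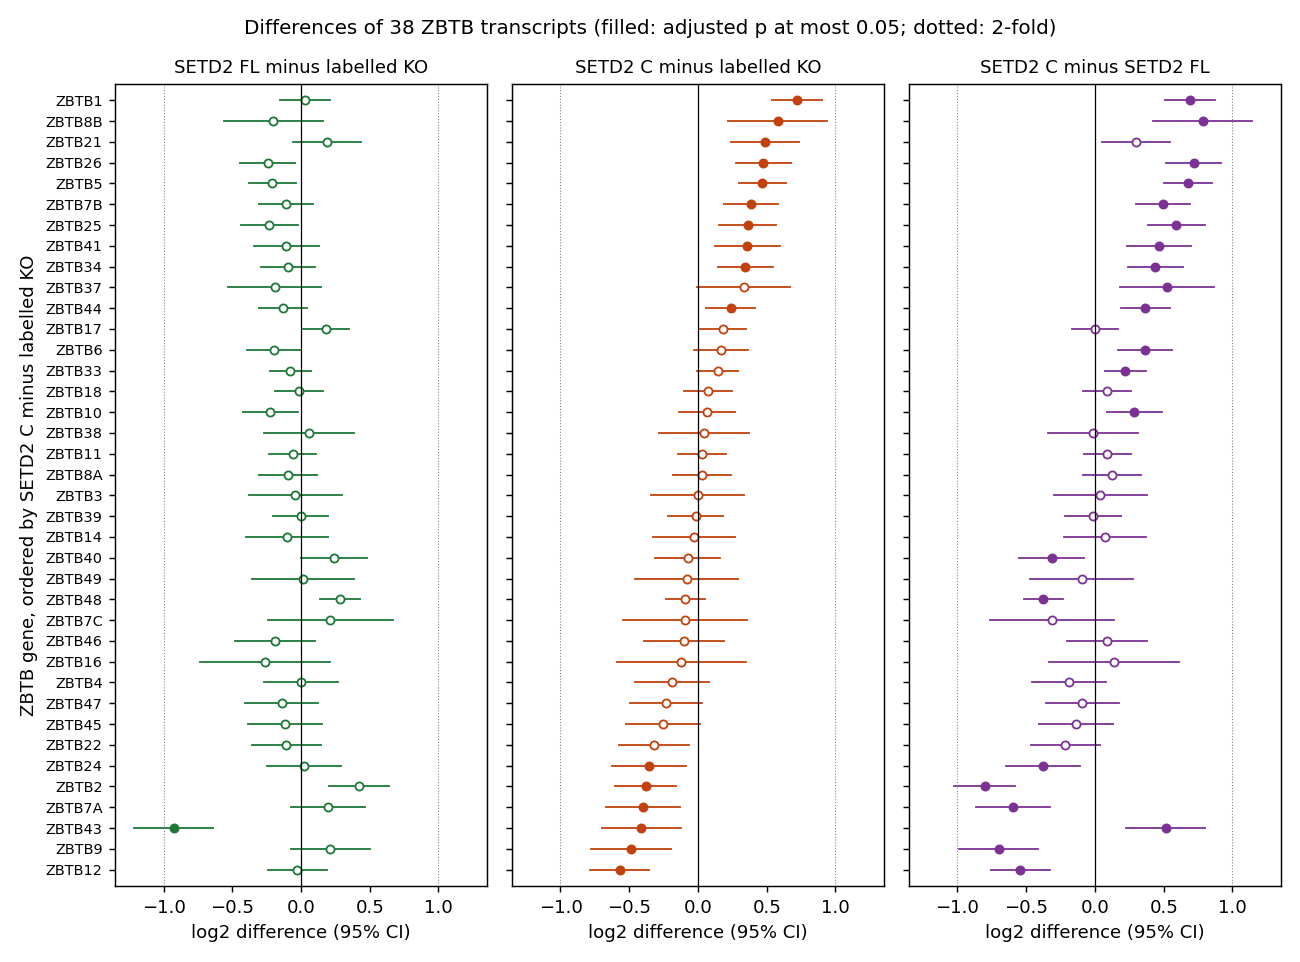
Log2 differences with 95% confidence intervals for the 38 tested ZBTB genes in the second RNA table, for SETD2 FL minus the libraries labelled KO (left), SETD2 C minus the libraries labelled KO (middle) and SETD2 C minus SETD2 FL (right), with filled points where the adjusted p was 0.05 or less. ZBTB43 is the only filled point on the left (-0.93), the middle panel has 16 filled points and the right panel 21, and no point lies past the dotted lines at 2-fold.

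Among the members known from lymphoid and myeloid cells, 3 of 6 tested rose with SETD2 C and none fell, in both comparisons, beside 21.1% of all tested genes that rose against the libraries labelled KO and 21.4% against SETD2 FL. The role groups, here and below, were chosen with earlier results of these data known, so their shares test nothing. ZBTB1, needed for lymphoid development and active in DNA damage tolerance, changed most against the libraries labelled KO. It was listed at 7.96 and 7.46 TPM in those libraries, 7.65 and 8.33 TPM with SETD2 FL and 14.47 and 14.32 TPM with SETD2 C. Both SETD2 C libraries stood far above the other 4, which overlapped. The difference was 0.72 ± 0.08 SE against the libraries labelled KO (adjusted p = 0.000656) and 0.69 ± 0.08 SE against SETD2 FL (adjusted p = 0.000653). In the first table ZBTB1 was at 10.80 and 13.21 TPM in WT and 12.29 and 13.40 TPM in the libraries labelled KO.

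ZBTB7B (ThPOK), which directs T cells to the helper lineage, was listed at 8.84 and 9.01 TPM in the libraries labelled KO, 8.27 and 8.47 TPM with SETD2 FL and 13.86 and 12.39 TPM with SETD2 C. It rose by 0.39 ± 0.09 SE (adjusted p = 0.0104) and 0.49 ± 0.09 SE (adjusted p = 0.00343), and without C replicate 1 the first of these was 0.31 (adjusted p = 0.0656). In the first table it was at 6.65 and 8.41 TPM in WT and 8.69 and 7.47 TPM in the libraries labelled KO, which overlapped. ZBTB25, reported to repress in T cells, was at 7.68 and 7.59, 6.52 and 6.53, and 11.69 and 10.39 TPM in the order KO, FL and C. Its differences were 0.36 ± 0.09 SE (adjusted p = 0.0169) and 0.59 ± 0.09 SE (adjusted p = 0.00202). The first was lost without KO replicate 2, KO replicate 4 or C replicate 1 (0.36, 0.36 and 0.28, with adjusted p of 0.0628, 0.0654 and 0.0998).

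The other members of this group did not pass the test. ZBTB16 (PLZF), a regulator of innate-like lymphocytes, was low at 0.77 to 1.45 TPM in the second table, listed as 1.45 and 1.26, 0.77 and 1.43, and 1.3 and 1.37 TPM. It was at 0.62 and 1.72 TPM in WT and 1.08 and 1.03 TPM in the libraries labelled KO of the first table. Its interval for SETD2 C minus FL, from -0.33 to 0.61, was wide. The dendritic cell factor ZBTB46 differed by 0.09 between the constructs (interval -0.20 to 0.38). ZBTB17 differed by -0.00 between them (interval -0.17 to 0.17), and by 0.18 from the libraries labelled KO with either construct (adjusted p = 0.0811 with SETD2 C and 0.275 with SETD2 FL). In the first table ZBTB17 was at 12.52 and 14.03 TPM in WT and 15.09 and 14.68 TPM in the libraries labelled KO.

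ZBTB7A (LRF), the paralogue of ZBTB7B and a repressor of fetal globin and glycolytic genes, moved the other way. ZBTB7A was listed at 2.91 and 3.07 TPM in the libraries labelled KO, 3.50 and 3.60 TPM with SETD2 FL and 2.54 and 2.24 TPM with SETD2 C. All 3 groups were apart, with SETD2 C lowest. SETD2 FL minus KO was 0.20 ± 0.12 SE for ZBTB7A and did not pass the test (limma adjusted p = 0.439). Those 2 groups did not overlap for 48.2% of all tested genes. The SETD2 C differences were -0.40 ± 0.12 SE against the libraries labelled KO (adjusted p = 0.0307) and -0.60 ± 0.12 SE against SETD2 FL (adjusted p = 0.00584). The first of these was lost without any 1 of KO replicate 2, KO replicate 4, C replicate 1 and C replicate 2 (-0.44, -0.36, -0.47 and -0.32, adjusted p = 0.0737, 0.125, 0.051 and 0.15). ZBTB7A was at 5.78 and 6.59 TPM in WT and 7.73 and 7.57 TPM in the libraries labelled KO of the first table. ZBTB7C passed no test.

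**Figure D4:**
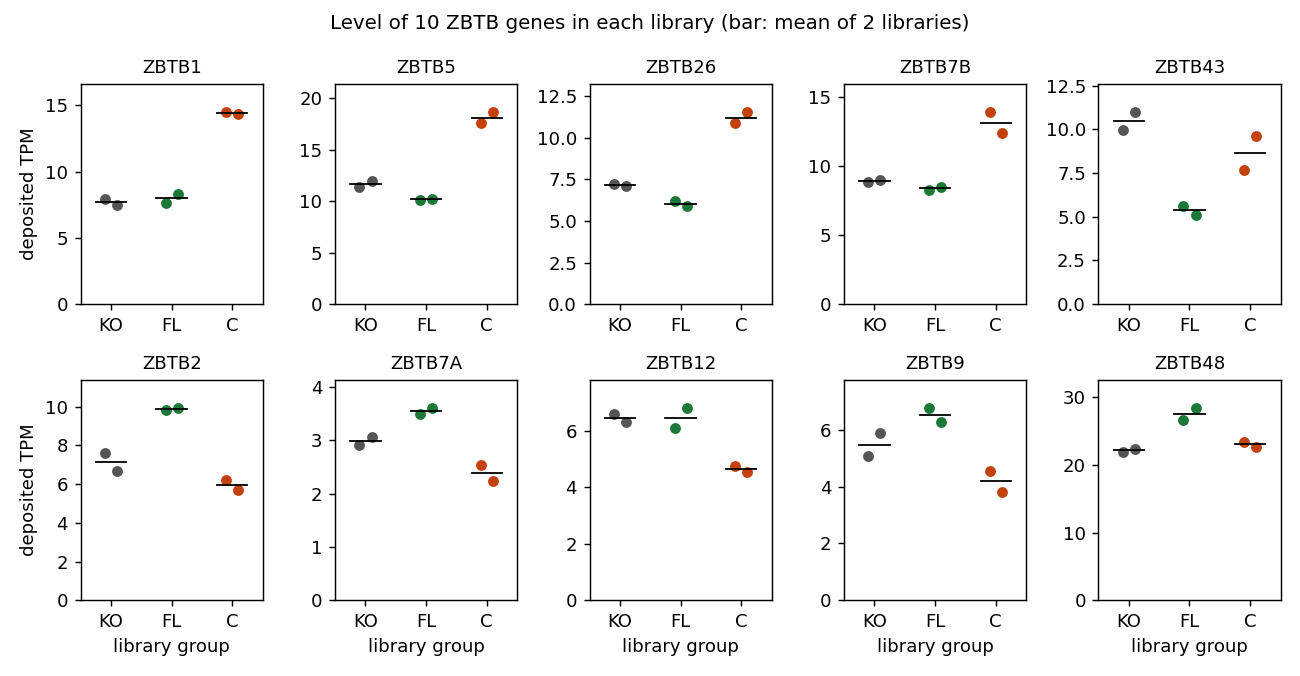
Deposited TPM (axes from 0) of 10 ZBTB genes in each of the 6 libraries of the second RNA table, with points for libraries and bars for the mean of 2 libraries. ZBTB1, ZBTB5, ZBTB26 and ZBTB7B are highest in both SETD2 C libraries, ZBTB43 is lowest in both SETD2 FL libraries, and ZBTB2, ZBTB7A, ZBTB12 and ZBTB9 are lowest in both SETD2 C libraries.

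The members reported to act on CDKN1A, the gene of the cell cycle inhibitor p21, did not move together. ZBTB5, described as a CDKN1A repressor, was listed at 11.37 and 11.96 TPM in the libraries labelled KO, 10.15 and 10.20 TPM with SETD2 FL and 17.56 and 18.63 TPM with SETD2 C. It rose by 0.47 ± 0.07 SE (adjusted p = 0.00294) and 0.68 ± 0.07 SE (adjusted p = 0.000592) against the libraries labelled KO and SETD2 FL. ZBTB2, by contrast, was at 6.21 and 5.71 TPM with SETD2 C, below the other 4 libraries. Its difference was -0.80 ± 0.10 SE against SETD2 FL (adjusted p = 0.000781), the largest fall between constructs in the family, and -0.38 ± 0.10 SE against the libraries labelled KO (adjusted p = 0.0175). The second was lost without KO replicate 2 (-0.30, adjusted p = 0.0966) or C replicate 2 (-0.32, adjusted p = 0.10) and without scaling. With ZBTB7A, this made 1 risen and 2 fallen of 6 members in each comparison (50%, beside 36.2% and 38.2% of all tested genes in either direction). ZBTB4 and ZBTB49 passed neither test.

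Of the 3 methyl-CpG binders, ZBTB33 was above its SETD2 FL level in the SETD2 C libraries, by 0.22 ± 0.06 SE (adjusted p = 0.0295). That call was lost without FL replicate 3, FL replicate 4 or C replicate 2 (0.18, 0.26 and 0.17, adjusted p = 0.138, 0.0529 and 0.162), and against the libraries labelled KO the difference was 0.14 (adjusted p = 0.118). ZBTB4 was listed at 5.18 and 4.34 TPM in the libraries labelled KO, 4.61 and 5.04 TPM with SETD2 FL and 4.83 and 4.28 TPM with SETD2 C, and at 5.13 and 5.87 TPM in WT and 6.44 and 6.42 TPM in the libraries labelled KO of the first table. ZBTB38 was at 1.96 and 2.21, 2.12 and 2.33, and 2.13 and 2.69 TPM in the second table, and at 3.59 and 6.73 TPM in WT and 4.59 and 6.02 TPM in the libraries labelled KO of the first. The construct groups overlapped for ZBTB38, whose interval for SETD2 C minus FL ran from -0.34 to 0.31. That of ZBTB4 ran from -0.46 to 0.08.

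All 5 members tied to genome or telomere maintenance passed the test between SETD2 C and SETD2 FL, 2 higher and 3 lower, beside 38.2% of all tested genes in either direction, and 2 of these 5 calls were kept with every library left out. Besides ZBTB1, the telomere-repeat binder ZBTB10 was higher, at 12.41 and 13.94 TPM against 9.39 and 10.17 TPM (0.29 ± 0.09 SE, adjusted p = 0.0336). ZBTB48 was lower by the values given above (-0.37 ± 0.06 SE, adjusted p = 0.00285). Its SETD2 C libraries lay above the libraries labelled KO in listed TPM but below them after scaling. That scaled difference was -0.09 (interval -0.23 to 0.05) and did not pass the test. ZBTB24 was listed at 5.62 and 4.82 TPM in the libraries labelled KO, 4.88 and 5.88 TPM with SETD2 FL and 4.20 and 4.57 TPM with SETD2 C. It differed by -0.36 ± 0.12 SE (adjusted p = 0.0446) and -0.38 ± 0.12 SE (adjusted p = 0.0355) in the 2 comparisons. ZBTB40 was lower by -0.31 ± 0.10 SE against SETD2 FL (adjusted p = 0.0438).

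Only ZBTB1 and ZBTB48 in this group kept the call between constructs with every library left out. ZBTB40 lost it without any 1 of the libraries (adjusted p = 0.0893, 0.169, 0.0656 and 0.202 without FL replicate 3, FL replicate 4, C replicate 1 and C replicate 2, at -0.36, -0.27, -0.38 and -0.25). ZBTB24 lost it without FL replicate 4, C replicate 1 or C replicate 2 (-0.28, -0.33 and -0.43, adjusted p = 0.174, 0.143 and 0.0842). Against the libraries labelled KO, ZBTB24 lost its call without any 1 library (adjusted p = 0.205, 0.0529, 0.17 and 0.0999 without KO replicate 2, KO replicate 4, C replicate 1 and C replicate 2, at -0.27, -0.46, -0.31 and -0.41). ZBTB10 lost its call without FL replicate 3, FL replicate 4 or C replicate 2 (0.26, 0.31 and 0.21, adjusted p = 0.132, 0.08 and 0.185). Neither neural member passed a test between constructs, ZBTB18 at 0.09 (interval -0.09 to 0.26) and ZBTB45 at -0.14 (interval -0.40 to 0.13).

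The remaining members include several with little established function, and some of the largest changes were among them. ZBTB26 was listed at 7.19 and 7.08 TPM in the libraries labelled KO, 6.19 and 5.89 TPM with SETD2 FL and 10.89 and 11.52 TPM with SETD2 C. It rose by 0.48 ± 0.09 SE (adjusted p = 0.00484) and 0.72 ± 0.09 SE (adjusted p = 0.000808). ZBTB8B, at 0.84 and 0.94, 0.76 and 0.68, and 1.63 and 1.85 TPM, had the largest rise between constructs in the family, 0.78 ± 0.16 SE or 1.72-fold (adjusted p = 0.00653). At these low levels the pseudocount of 0.5 shrinks the fold change, and with a pseudocount of 0.1 the difference was 1.05, and it was the only member to pass 2-fold with an adjusted p of 0.05 or less in any setting. Against the libraries labelled KO it rose by 0.58 ± 0.16 SE (adjusted p = 0.0229), a call lost without any 1 library (0.52, 0.64, 0.65 and 0.51, adjusted p = 0.101, 0.0602, 0.0575 and 0.117 without KO replicate 2, KO replicate 4, C replicate 1 and C replicate 2).

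ZBTB21 was listed at 4.52 and 4.97 TPM in the libraries labelled KO, 5.13 and 6.01 TPM with SETD2 FL and 7.94 and 7.25 TPM with SETD2 C. It rose against the libraries labelled KO (0.49 ± 0.11 SE, adjusted p = 0.0101), which was lost without KO replicate 2 or C replicate 1 (0.42 in both, adjusted p = 0.0546 and 0.0624), and was at 0.30 between constructs (adjusted p = 0.0575). ZBTB12 was listed at 6.60 and 6.32, 6.08 and 6.79, and 4.77 and 4.53 TPM, with both SETD2 C libraries below the rest. Its differences were -0.57 ± 0.09 SE (adjusted p = 0.00309) and -0.54 ± 0.09 SE (adjusted p = 0.00326). ZBTB9 was at 5.08 and 5.89, 6.76 and 6.28, and 4.57 and 3.81 TPM, and differed by -0.49 ± 0.13 SE (adjusted p = 0.0197) and -0.70 ± 0.13 SE (adjusted p = 0.0041). The first was lost without KO replicate 4 or C replicate 2 (-0.38 and -0.37, adjusted p = 0.103 and 0.118).

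ZBTB43 was the one member past the threshold in all 3 comparisons of the second table. With SETD2 C it was at 7.65 and 9.64 TPM, between the libraries labelled KO and the SETD2 FL libraries, with no overlap among the 3 groups. It was lower than in the libraries labelled KO (-0.41 ± 0.12 SE, adjusted p = 0.0349) and above the SETD2 FL libraries (0.51 ± 0.12 SE, adjusted p = 0.0142). The first was lost without KO replicate 2, KO replicate 4 or C replicate 1 (-0.48, -0.34 and -0.26, adjusted p = 0.0592, 0.152 and 0.18), and the second without FL replicate 4 or C replicate 2 (0.43 and 0.36, adjusted p = 0.0778 and 0.0913).

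The smaller changes were ZBTB34, ZBTB41 and ZBTB44, risen in both comparisons, and ZBTB6 and ZBTB37, higher between constructs. ZBTB34 differed by 0.44 and ZBTB44 by 0.37 between constructs (adjusted p = 0.00596 and 0.00774), and both kept this call with every library left out. ZBTB41 differed by 0.47 (adjusted p = 0.00951) and lost the call without C replicate 2 (0.42, adjusted p = 0.0638). Against the libraries labelled KO these 3 rose by 0.35, 0.24 and 0.36 in the order ZBTB34, ZBTB44 and ZBTB41. Those calls were lost without KO replicate 4, C replicate 1 or C replicate 2 for all 3 (adjusted p of 0.0578 to 0.173) and also without KO replicate 2 for ZBTB44 and ZBTB41 (adjusted p = 0.187 and 0.123). ZBTB6 differed by 0.36 between constructs (adjusted p = 0.0122), which was lost without FL replicate 3, C replicate 1 or C replicate 2 (adjusted p = 0.0533, 0.0602 and 0.0547). ZBTB37 differed by 0.52 (adjusted p = 0.0249), which was lost without FL replicate 3, FL replicate 4 or C replicate 2 (adjusted p = 0.0511, 0.114 and 0.138).

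Of the 7 members in no group above that passed no test, ZBTB22 came nearest, at -0.32 (adjusted p = 0.052) against the libraries labelled KO. ZBTB39 differed between constructs by -0.01 (interval -0.22 to 0.19).

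Several members lie close together, so their values need not be independent. In the GENCODE 44 annotation of GRCh38, ZBTB43 (chr9:126805006-126838210) and ZBTB34 (chr9:126860639-126885878) lie 22428 bases apart on the forward strand. ZBTB43 fell and ZBTB34 rose against the libraries labelled KO, and both were above their SETD2 FL level with SETD2 C. ZBTB6 (chr9:122908056-122913323) and ZBTB26 (chr9:122915566-122931512) lie 2242 bases apart on the reverse strand, and both were higher between the constructs. ZBTB8B and ZBTB8A lie 42740 bases apart on chromosome 1, and ZBTB8A passed no test (0.12 between constructs, interval -0.09 to 0.34).

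ZBTB25 (chr14:64449106-64505213, reverse strand) and ZBTB1 (chr14:64503712-64533690, forward strand) overlap by 1502 bases, and both rose with SETD2 C. Of the 40 members, 20 overlap a listed gene on the opposite strand. The sources used here do not state whether strand was used in the counting, so reads in such overlaps cannot be assigned with certainty. For ZBTB25 the partners include MTHFD1 (mean 149 TPM), which was lower by -0.38 between constructs (adjusted p = 0.00126) while ZBTB25 was higher, and AKAP5 (mean 1.42 TPM), which was higher by 0.58 (adjusted p = 0.0159). ZBTB37 overlaps GAS5 (mean 832 TPM), which was higher by 0.54 (adjusted p = 0.00185), so the rise of ZBTB37 is uncertain. ZBTB12 overlaps the complement gene C2 at a mean of 4.84 TPM whose difference was -0.05 between constructs (adjusted p = 0.711).

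The promoters of members that moved in different ways are printed to show the sequence at their starts. Each run below is the sequence just before a RefSeq gene start on GRCh38.p14, written 5′ to 3′ on the gene's own strand and ended where the GENCODE 44 gene begins. Capitals mark CCGGAAG, a core bound by ETS factors (or CTTCCGG on the other strand), and ACGTG, an E-box-like core (or CACGT). The members that rose with SETD2 C against both other groups are ZBTB26 (chr9:122931513-122931762, reverse strand), ZBTB5 (chr9:37465451-37465700, reverse strand) and ZBTB34 (chr9:126860389-126860638, forward strand). ZBTB43 (chr9:126804790-126805005, forward strand) fell with SETD2 FL, and ZBTB2 (chr6:151391560-151391809, reverse strand) and ZBTB7A (chr19:4066900-4067149, reverse strand) fell with SETD2 C.
ZBTB26: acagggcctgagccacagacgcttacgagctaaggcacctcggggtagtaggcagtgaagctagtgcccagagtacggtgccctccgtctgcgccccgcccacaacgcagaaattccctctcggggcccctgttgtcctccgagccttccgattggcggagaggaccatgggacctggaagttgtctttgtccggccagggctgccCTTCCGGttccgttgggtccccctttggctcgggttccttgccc
ZBTB5: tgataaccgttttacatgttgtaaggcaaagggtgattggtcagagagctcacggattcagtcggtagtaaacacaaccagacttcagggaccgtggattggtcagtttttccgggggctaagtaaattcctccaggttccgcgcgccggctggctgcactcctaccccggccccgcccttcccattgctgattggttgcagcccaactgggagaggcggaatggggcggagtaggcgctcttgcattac
ZBTB34: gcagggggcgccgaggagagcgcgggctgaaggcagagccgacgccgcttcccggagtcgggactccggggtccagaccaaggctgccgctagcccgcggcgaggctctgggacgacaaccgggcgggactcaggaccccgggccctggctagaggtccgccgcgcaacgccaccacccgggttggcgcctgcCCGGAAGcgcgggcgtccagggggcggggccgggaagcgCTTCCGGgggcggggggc
ZBTB43: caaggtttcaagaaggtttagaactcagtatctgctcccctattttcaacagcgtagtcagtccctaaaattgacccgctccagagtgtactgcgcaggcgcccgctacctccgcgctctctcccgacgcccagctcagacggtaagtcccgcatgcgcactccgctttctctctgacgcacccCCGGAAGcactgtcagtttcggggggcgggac
ZBTB2: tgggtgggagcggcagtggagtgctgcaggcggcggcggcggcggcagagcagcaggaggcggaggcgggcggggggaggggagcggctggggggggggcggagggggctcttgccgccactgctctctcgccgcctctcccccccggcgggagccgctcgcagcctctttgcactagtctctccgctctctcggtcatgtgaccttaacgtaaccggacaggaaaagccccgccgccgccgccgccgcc
ZBTB7A: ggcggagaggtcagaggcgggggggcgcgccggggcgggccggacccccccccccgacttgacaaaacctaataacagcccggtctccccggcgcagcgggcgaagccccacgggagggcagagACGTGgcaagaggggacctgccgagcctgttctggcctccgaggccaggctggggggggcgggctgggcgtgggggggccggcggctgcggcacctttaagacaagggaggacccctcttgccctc

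CCGGAAG on either strand occurred in the windows of 8 of the 34 members that RefSeq gives (23.5%), 250 bases each, and in 8.52% of all 35116 windows of that length. ACGTG occurred in 12 (35.3%) and in 18.5% of all windows. The members' windows were also richer in CG dinucleotides, with a median of 20.5 against 11. All windows were taken without regard to expression in these cells or to several starts of a gene, while each member has 1 window. The shares therefore compare unlike sets. Of the members higher between the constructs, 5 of 11 with a window held CCGGAAG, as did 1 of 6 of those lower and 2 of 15 of the rest. For ACGTG these were 4, 2 and 5. CCGGAAG was chosen with earlier results of these data known, so its counts by call test nothing. The motif matches are a description of the windows and say nothing on binding.

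Members that moved in opposite directions also differed in base composition. Between SETD2 C and SETD2 FL, the 14 higher members had a median of 39.4% G and C in the transcript, the 7 lower members 52.7% and the others 51.9%, and 12 of the 14 higher members were under 45%. Over the 38 tested members the difference correlated with G and C content at Pearson r = -0.533 (Spearman rho = -0.585), against r = -0.0882 over all tested genes with an annotated transcript. Against the libraries labelled KO the values were r = -0.527 for the members and -0.0747 for all. The members share the same libraries in each comparison, and transcript length, which differs too (r = 0.468 with the difference between constructs), is not separated from composition here. The higher members above it were ZBTB5 (47.5%) and ZBTB7B (63%), and the lower members under it were ZBTB24 (41.5%) and ZBTB2 (44.9%). For WT minus KO and SETD2 FL minus KO the members' r was 0.216 and 0.231. After an adjustment for G and C content fitted on all genes, 13 members were higher and 7 lower between constructs. That adjustment follows the weak trend of all genes and cannot remove a trend of the members alone, so these counts do not separate composition from the differences.

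**Figure D5:**
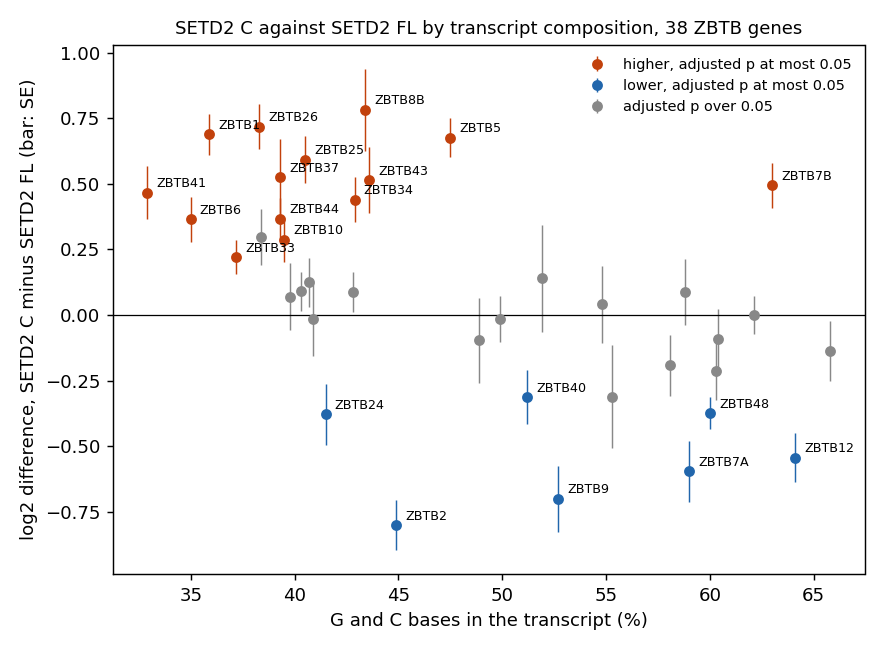
Log2 difference between SETD2 C and SETD2 FL (points, with bars for the SE) against the percent of G and C bases in the transcript for the 38 tested ZBTB genes, in orange where higher, blue where lower and grey where the test was not passed. The higher genes have a median of 39.4% and the lower genes of 52.7%, with ZBTB7B at 63% and ZBTB24 at 41.5% lying among the other set.

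The proteins and genes around the family give its setting. Of 8 BTB-zinc finger genes with other names, all tested, only BCL6, the germinal centre repressor, passed. That is 12.5% of the list in each SETD2 C comparison, beside 36.2% and 38.2% of all tested genes in either direction. BCL6 was at 4.05 and 3.49 TPM in the libraries labelled KO, 3.61 and 3.42 TPM with SETD2 FL and 6.27 and 5.80 TPM with SETD2 C (0.48 and 0.59, adjusted p = 0.0134 and 0.00558). The 14 genes listed here for BTB-domain corepressors and CUL3 were all tested. With SETD2 C, 1 rose (HDAC1) and 5 fell (BCOR, NCOR1, SIN3A, TBL1X and TBL1XR1) against the libraries labelled KO, and 2 were higher and 4 lower than with SETD2 FL. In either direction 42.9% of this list passed in each comparison, near the 36.2% and 38.2% of all tested genes. TBL1X, a subunit of corepressor complexes, fell by 0.555 on the log2 scale (adjusted p = 0.00295), and HDAC1 was at 197.22 and 195.68 TPM in the libraries labelled KO and 267.09 and 279.85 TPM with SETD2 C (0.33, adjusted p = 0.00201). None of the 14 passed between WT and KO or between SETD2 FL and KO, where 3 and 1 had an unadjusted p under 0.05. The shares of all tested genes under that limit were 24.9% and 15.9%. In related families, 9 of 25 tested BTB-Kelch genes (KLHL) were higher and 0 lower between constructs, and of 415 tested ZNF genes 103 were higher (24.8%) and 35 lower (8.43%), beside 21.4% and 16.8% of all tested genes.

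Of 11 genes reported as targets of ZBTB proteins, 7 were tested and 5 rose with SETD2 C against both other groups, beside 21.1% and 21.4% of all tested genes in the 2 comparisons. This list was chosen with earlier results of these data known, so its share tests nothing. CDKN1A was listed at 28.00 and 29.92 TPM in the libraries labelled KO, 31.88 and 34.39 TPM with SETD2 FL and 51.86 and 48.17 TPM with SETD2 C (0.63 and 0.46, adjusted p = 0.00063 and 0.00185). SLC2A3, a glucose transporter gene reported to be repressed by ZBTB7A, was the one past 2-fold, at 14.69 and 19.26, 17.68 and 16.77, and 105.35 and 116.21 TPM (2.54 and 2.52, adjusted p = 1.4e-05 and 1.47e-05). The glycolytic genes PFKP and PKM, reported under ZBTB7A too, rose by 0.38 and 0.53 against the libraries labelled KO, and CDKN2B rose by 0.52. Any part of ZBTB7A or other members in these changes was not tested. CDCA7, a ZBTB24 target, and MTFP1, a ZBTB48 target, passed no test, at -0.11 (adjusted p = 0.229) and -0.01 (adjusted p = 0.905) against the libraries labelled KO. Between WT and KO, SLC2A3 was higher in WT (0.51, adjusted p = 0.0384) and CDKN2B lower (-0.74, adjusted p = 0.00945). HBG1, HBG2, AFP and MMP7 were at 0.24 TPM or less in every library.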

How the data were processed

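The 10 RNA-Seq libraries of HEK293T cells, 2 a group, were grouped by their sample titles. The 14 ChIP samples of the series were not analysed here. The authors aligned paired reads to hg38 with STAR 2.6.1c and the Ensembl 96 annotation and deposited TPM per gene from RSEM 1.3.0, in 2 tables made separately, so every test stayed within a table. TPM keeps no record of depth, and the count test in the study's methods could not be run on it.

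TPM values were scaled by the median ratio over protein-coding and lncRNA genes with at least 1 TPM in every library (factors 0.879 to 1.07), and log2(scaled TPM + 0.5) was fitted in R 4.3.3 by limma 3.58.1, with a trended empirical Bayes spread, for genes at 0.5 TPM or more in at least 2 libraries. The 6 libraries of the second table shared 1 estimate of the spread. Benjamini-Hochberg adjustment ran over all tested genes, and a gene was said to rise or fall at an adjusted p of 0.05 or less and to pass 2-fold at a fold change of 2 or more as well. Fold changes on this scale understate those of low genes. Whether 2 groups overlapped was read from the scaled values. An exact permutation test of 2 against 2 cannot go below p = 0.333, so none was used for single genes. The scripts were tested on simulated data built from the second table, for SETD2 C against KO. Of 66 changes of log2 0.5 that were put in, 31.8% were recovered. For changes of log2 1 and 2 it was 71.6% and 86.6% of 67 each, with 8 false calls in all. A difference of log2 0.5 can thus be missed.

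Positions, gene types and transcript composition came from GENCODE 44 (GRCh38), and promoters from RefSeq (GRCh38.p14), where 34 of 40 members had a window of 250 bases. Where RefSeq gives several starts, the one nearest the GENCODE start was used. The members, gene lists and the motif CCGGAAG were chosen with earlier results of these data known. Shares of the gene lists and role groups that passed are therefore a description and test nothing. 1 gene of the corepressor list is not reported here, for a reason unrelated to its values, and was left out of its counts after its values were seen. Values in every library are given for the 3 members with the largest rise and fall among those that passed in each comparison, the 3 highest in each table, and named members of the role groups. The replicate number block, other scalings, filters, pseudocounts, gene types and spread estimates, each library left out and, chosen after seeing the data, an adjustment for G and C content were tried as alternatives.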

Additional observations from a re-analysis of the deposited data

How the results depend on the processing

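No member that passed a test reversed its sign in any of the alternatives. Between SETD2 FL and the libraries labelled KO, the fallen member ZBTB43 was lost, leaving 0, with no filter on low values, with a spread estimate without trend, with all gene types, with the adjustment for G and C content (chosen after seeing the data), with a fit of the 2 groups alone, and with each library left out (0 to 0). Between SETD2 C and the libraries labelled KO, 2 members fell with no filter and 2 without scaling, and 6 rose and 10 fell after quantile normalization. With 1 library left out, 3 to 6 rose and 2 to 4 fell there, and 8 to 13 were higher and 5 to 6 lower between SETD2 C and SETD2 FL. With a pseudocount of 0.1, 1 member passed 2-fold between the constructs. The cause of these differences was not tested, except that leaving out a library leaves fewer samples. Of all tested genes, 5509 rose and 1117 fell with SETD2 C against the libraries labelled KO without scaling, and 2457 and 2786 after quantile normalization, against 3359 and 2405 as reported.

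With the replicate number as a block, 0 members were higher and 0 lower between WT and the libraries labelled KO, as without it, while among all tested genes 827 were higher and 442 lower with the block against 467 and 194 without it. The numbers are shared by 2 samples a group only, and the deviations of the first WT and first KO library from their group means correlated at 0.147 over 14746 genes. The labels name no shared culture or day, so the samples share only a number. The groups of the second table share fewer than 2 numbers, so no paired analysis was possible there. Depth is unknown, so what limits low members such as ZBTB16 and ZBTB7C was not measurable.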
